A study of Homo sapiens with 6 samples.

Results

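The cluster of miR-362, miR-500, miR-532 and miR-660 is a row of microRNA (miRNA) hairpins in introns of CLCN5 on the X chromosome, and 10 of its mature miRNAs are described here in KPL4 cells with and without estrogen receptor β (ERβ, encoded by ESR2). KPL4 is an established human breast adenocarcinoma line. The 10 members were taken by name from the deposited table of 2656 mature miRNAs, and each of them was among the 783 that passed the filter on low counts. The 6 remaining arms of the same hairpins are given beside them. Small RNA of 6 samples was sequenced. The first group was 3 samples of ERβ knockout cells transfected with exogenous ERβ, called ERβ libraries 1, 2 and 3. The other was 3 samples of ERβ knockout cells without it, called knockout libraries S1, S2 and 3. Both groups thus carry the knockout, no cells with an empty vector or with their own ERβ are among the samples, and the sources used here give neither the promoter of the transgene nor the number of knockout clones. The labels do not state whether samples of a group were grown separately, and the p-values refer to the spread between these libraries, which may be technical.

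miRNAs are cut from hairpin precursors into a 5p and a 3p strand, either of which can be loaded into Argonaute to repress messenger RNAs that pair with its seed (bases 2 to 8). Hairpins that lie close together on a strand are often made from the same primary transcript, while each hairpin is then cut and its strands retained with its own efficiency. The host gene CLCN5 encodes a chloride and proton exchanger of endosomes that is best known from the kidney tubule.

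The cluster holds 8 hairpins on the plus strand within 11.5 kb of chromosome X (GRCh38, GENCODE release 29). MIR532 (chrX:50003148-50003238) and MIR188 (chrX:50003503-50003588) come first, 264 bases apart. A gap of 4842 bases separates them from MIR500A (chrX:50008431-50008514), MIR362 (chrX:50008964-50009028), MIR501 (chrX:50009722-50009805), MIR500B (chrX:50010672-50010750), MIR660 (chrX:50013241-50013337) and MIR502 (chrX:50014598-50014683). All 8 lie within CLCN5 (chrX:49922615-50099235, plus strand), inside 3 of its 9 annotated transcripts and in exons of none of them, which makes them intronic.

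Mature sequences were matched in RefSeq (GRCh38.p14) for 9 of the 10 members, all but miR-660-5p. They are shown because several are so alike that reads can be shared between names. Capitals mark the seed, and each sequence runs 5′ to 3′. The first 4 are the 3p strands of the miR-500 and miR-501 type, which are near-identical except for the shorter miR-500b-3p.
miR-500a-3p: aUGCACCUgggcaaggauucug
miR-502-3p: aAUGCACCugggcaaggauuca
miR-501-3p: aAUGCACCcgggcaaggauucu
miR-500b-3p: gCACCCAGgcaaggauucug
miR-500a-5p: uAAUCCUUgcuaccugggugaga
miR-500b-5p: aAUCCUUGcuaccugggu
miR-501-5p: aAUCCUUUgucccugggugaga
miR-362-5p: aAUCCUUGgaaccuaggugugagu
miR-362-3p: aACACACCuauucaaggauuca
miR-532-5p: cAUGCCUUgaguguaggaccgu
miR-532-3p: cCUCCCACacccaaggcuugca
miR-188-5p: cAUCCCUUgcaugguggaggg

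miR-501-3p and miR-502-3p differ by 2 edits (changed, added or missing bases) and share the seed AUGCACC. miR-500a-3p differs from each of them by 3 edits and has a 20-base run in common with miR-502-3p, read from 1 base further along, so that its seed is UGCACCU. The 18 bases of miR-500b-5p lie whole within miR-500a-5p, and its seed AUCCUUG is that of miR-362-5p. The deposited values of these names are the ones that were not whole numbers: miR-502-3p in 6 of 6 libraries, miR-500a-3p and miR-501-3p in 5, miR-500b-5p in 5 and miR-500a-5p in 4. Those of the other 7 members were whole in every library. Reads of the near-identical names therefore cannot be fully told apart, and a sum of 3p strands is given below as well. It includes miR-500b-3p, which differs from miR-500a-3p by 4 edits and was whole in every library.

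Total counts were 10288415 to 14296902 in the ERβ libraries and 10619000 to 12228519 in the knockout libraries. The epithelial miRNAs of the miR-200 family and miR-375-3p summed to 79195 to 84007 CPM (counts relative to the library total after TMM scaling) with ERβ and 81794 to 96819 CPM in knockout cells. Of the markers of other cells, 4 of blood summed to 14.1 to 16.6 CPM with ERβ and 12.6 to 18.3 CPM in knockout cells. Those of stroma (4) summed to 5.88 to 6.89 CPM with ERβ and 10.7 to 13.02 CPM in knockout cells, and those of muscle (3) to 0.473 to 1.27 CPM with ERβ and 3.06 to 4.37 CPM in knockout cells. The liver miRNA miR-122-5p had 20.1 to 28.7 CPM with ERβ and 17.2 to 20.5 CPM in knockout cells. miR-214-3p, miR-206 and miR-124-3p were at 0 in at least 1 library, while miR-126-3p and miR-9-5p, which are also known from endothelium and brain, were at 13079 CPM or more in every library. The part of other cells in the values below was not tested, and fewer cells of a type cannot be told apart from less RNA per cell.

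Knockout library S2 stood apart from its group. Its chi-square per degree of freedom over the tested miRNAs was 307 against knockout library S1 and 331 against knockout library 3, while these differed from each other by 14.8 and the ERβ libraries among themselves by 12.2 to 21.2. It was the highest or the lowest knockout library for 361 of 390 miRNAs averaging at least 10 CPM (92.6%). Its column carries the number 1, as does that of knockout library S1, and the labels do not explain this. They state no reason to leave it out, so it was kept, and values without it are given beside those that rest on it. The cause of its position was not tested.

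No member of the cluster passed the test between ERβ and knockout cells. By edgeR's quasi-likelihood test 0 of 10 had a Benjamini-Hochberg adjusted p under 0.05, where 23.1% of all tested miRNAs did, and 0 of 10 had an unadjusted p under 0.05, where 269 of 783 did. DESeq2 and limma-voom also called 0 of 10, against 21.5% and 24.6% of all tested miRNAs. In no member did every library of one group lie above every library of the other, as was the case for 39.8% of all tested miRNAs. The log2 fold changes (ERβ over knockout, n = 3 per group unless a library is left out) ran between -0.39 and 0.20. Their median was -0.061, and the median over all tested miRNAs was -0.012. Fits without S2 set 3 ERβ libraries against 2 knockout libraries. A member that misses the threshold is not thereby shown to be equal in both groups, so each is given below with the 95% interval of its fold change.

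**Figure D1:**
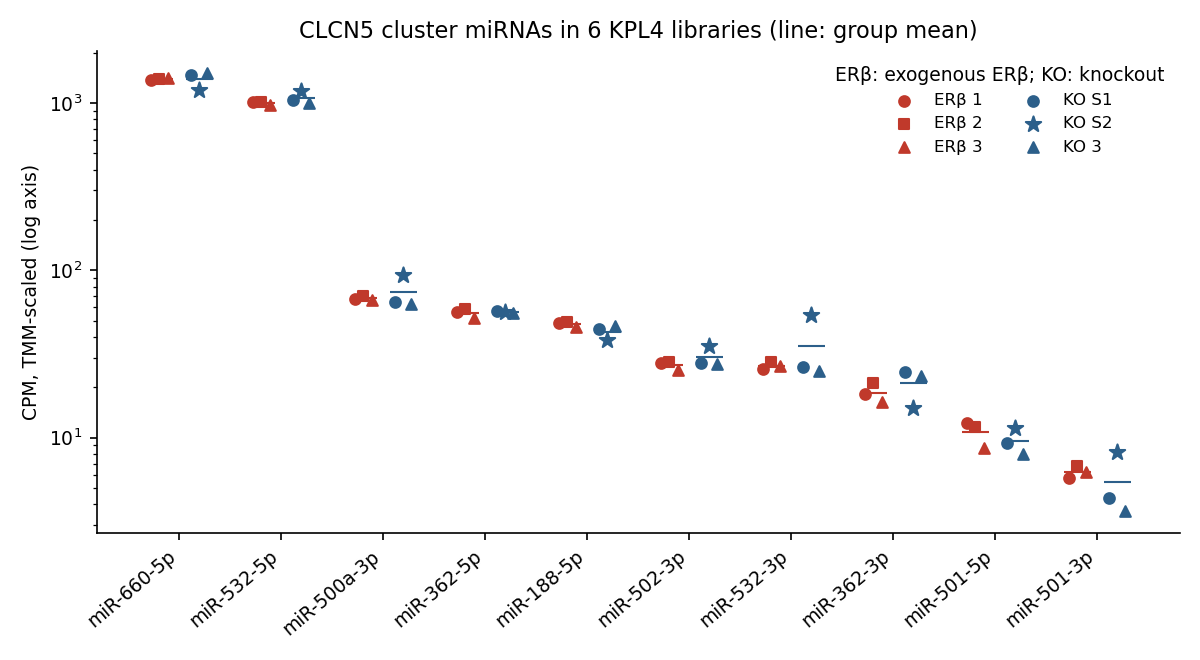
Level of each member (CPM scaled by TMM factors, log axis) in the 3 ERβ libraries (red) and the 3 knockout libraries (blue), with the group mean as a line and knockout library S2 as a star. miR-660-5p and miR-532-5p lie near 1000 CPM and above, the other members under 100 CPM, and the groups overlap in every member.

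miR-660-5p, reported to target MDM2 in lung cancer cells, and miR-532-5p, reported to target RUNX3 in gastric cancer cells, made up most of the cluster. Together they held 89.8 to 90.6% of the members' counts in the ERβ libraries and 88.4 to 90.9% in the knockout libraries. They ranked 75 and 85 of the 783 tested miRNAs by mean level. All 10 members summed to 2653 ± 18.0 CPM with ERβ and 2745 ± 44.7 CPM in knockout cells (mean ± SD, n = 3 each), and to 2771 CPM in knockout libraries S1 and 3. As a share of all counts this was 0.275 to 0.286% of each ERβ library and 0.257 to 0.267% of each knockout library. The sum was thus lower with ERβ on the TMM scale and higher as a plain share, with no overlap of the groups in either, and the TMM factors were 1.04 to 1.08 in ERβ libraries and 0.926 to 0.990 in knockout libraries.

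miR-660-5p had 1371, 1382 and 1412 CPM in ERβ libraries 1, 2 and 3, against 1467, 1202 and 1517 CPM in knockout libraries S1, S2 and 3. The ERβ values fell between the lowest and the highest knockout value, with library S2 the low one. It averaged 1388 ± 21.2 CPM with ERβ and 1395 ± 169 CPM in knockout cells (SD), a log2 fold change of -0.0075 ± 0.093 (standard error; edgeR adjusted p = 0.956). The 95% interval spans 0.860-fold to 1.15-fold. Without library S2 the log2 fold change was -0.10 ± 0.043 and again did not pass (adjusted p = 0.0673).

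miR-532-5p had 1016, 1017 and 977 CPM in ERβ libraries 1, 2 and 3, against 1043, 1179 and 1005 CPM in knockout libraries S1, S2 and 3. The groups overlapped, and here library S2 was the highest of all 6. The log2 fold change was -0.10 ± 0.080 (edgeR adjusted p = 0.433), with an interval of 0.824-fold to 1.06-fold. Without S2 it was -0.028 ± 0.045 (adjusted p = 0.677). The ratio of miR-660-5p to miR-532-5p, which does not depend on scaling, was 1.35 to 1.44 in the ERβ libraries and 1.41 and 1.51 in knockout libraries S1 and 3. In library S2 it was 1.02, the lowest of the 6.

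The other strand of the miR-532 hairpin had the most negative fold change of the 10 members. miR-532-3p had 25.9, 28.1 and 26.9 CPM in ERβ libraries 1, 2 and 3, against 26.5, 54.3 and 25.0 CPM in knockout libraries S1, S2 and 3. Library S2 was 2.11 times the mean of its 2 fellows, and the other 5 libraries lay between 25.0 and 28.1 CPM. The log2 fold change of -0.39 ± 0.26 (edgeR adjusted p = 0.345; interval 0.504-fold to 1.15-fold) became 0.070 ± 0.093 without library S2 (adjusted p = 0.602).

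miR-188-5p, which in mouse marrow stromal cells shifts the choice between bone and fat cells, had 48.2, 48.8 and 45.9 CPM in ERβ libraries 1, 2 and 3, against 44.5, 38.1 and 46.4 CPM in knockout libraries S1, S2 and 3. ERβ libraries 1 and 2 were above all knockout libraries, ERβ library 3 was not, and knockout library S2 was the lowest of the 6. The log2 fold change was 0.15 ± 0.11 (edgeR adjusted p = 0.371; interval 0.939-fold to 1.31-fold). Without S2 it was 0.068 ± 0.074 (adjusted p = 0.513). With plain library totals in place of TMM factors it was 0.31 ± 0.094 and passed (adjusted p = 0.0401), alone among the 10. That scaling called 26.4% of all tested miRNAs and moved their median by 0.15 on the log2 scale, relative to which miR-188-5p was at 0.15.

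The miR-362 hairpin gave both strands. miR-362-5p, reported to target CYLD, a deubiquitinase that restrains NF-κB signalling, had 56.6, 58.5 and 51.6 CPM in ERβ libraries 1, 2 and 3, against 56.9, 56.6 and 55.8 CPM in knockout libraries S1, S2 and 3. It was the only member that varied less among the 3 knockout libraries (0.971% coefficient of variation) than among ERβ libraries (6.42%), and the only one for which S2 lay between its fellows. Its log2 fold change was -0.023 ± 0.095 (interval 0.849-fold to 1.14-fold), and -0.022 ± 0.073 without S2.

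miR-362-3p, reported to target the potassium channel gene KCNH2, had 18.3, 21.1 and 16.4 CPM in ERβ libraries 1, 2 and 3, against 24.8, 15.1 and 23.3 CPM in knockout libraries S1, S2 and 3. All ERβ libraries were below knockout libraries S1 and 3 and above S2. The log2 fold change was -0.18 ± 0.19 (edgeR adjusted p = 0.568; interval 0.658-fold to 1.19-fold). Without library S2 it was -0.37 ± 0.11 and passed (adjusted p = 0.0135).

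Of the near-identical 3p strands, miR-500a-3p was the third most abundant member. It had 67.9, 70.3 and 66.7 CPM in ERβ libraries 1, 2 and 3, against 64.7, 93.8 and 62.9 CPM in knockout libraries S1, S2 and 3. All 3 ERβ libraries were above knockout libraries S1 and 3 and below S2. The log2 fold change was -0.11 ± 0.15 with all libraries (interval 0.728-fold to 1.17-fold) and 0.098 ± 0.065 without S2, and neither passed (edgeR adjusted p = 0.654 with S2 and 0.261 without).

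miR-502-3p had 27.8, 28.2 and 25.3 CPM in ERβ libraries 1, 2 and 3, against 27.9, 35.5 and 27.5 CPM in knockout libraries S1, S2 and 3. Only S2 stood out. For miR-502-3p the log2 fold change (ERβ over knockout) was -0.16 ± 0.13 with all libraries (interval 0.734-fold to 1.09-fold) and -0.033 ± 0.093 without S2 (edgeR adjusted p = 0.830). miR-501-3p, reported to target the glutamate receptor subunit GluA1 in mouse neurons, was the least abundant member, with 5.77, 6.82 and 6.22 CPM in ERβ libraries 1, 2 and 3, against 4.36, 8.18 and 3.66 CPM in knockout libraries S1, S2 and 3. Its log2 fold change was 0.20 ± 0.27 (edgeR adjusted p = 0.655; interval 0.751-fold to 1.75-fold), and 0.65 ± 0.18 without S2, which passed (adjusted p = 0.00849). These levels rest on 36.3 to 101.5 deposited counts a library, part of them divided among names.

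Summed into a single feature, miR-500a-3p, miR-500b-3p, miR-501-3p and miR-502-3p had 102, 108 and 101 CPM in ERβ libraries 1, 2 and 3, against 97.9, 140 and 95.4 CPM in knockout libraries S1, S2 and 3. The log2 fold change of the sum was -0.10 ± 0.15 (edgeR adjusted p = 0.674; interval 0.741-fold to 1.17-fold). It was 0.10 ± 0.060 without S2 (adjusted p = 0.205). Unlike miR-501-3p alone, the sum therefore did not pass without S2 either. miR-501-5p, from the other strand of the miR-501 hairpin, had 12.3, 11.6 and 8.72 CPM in ERβ libraries 1, 2 and 3, against 9.27, 11.4 and 8.04 CPM in knockout libraries S1, S2 and 3 (log2 fold change 0.17 ± 0.18, adjusted p = 0.571; interval 0.845-fold to 1.496-fold). Without S2 it was 0.31 ± 0.16 (adjusted p = 0.1402).

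**Figure D2:**
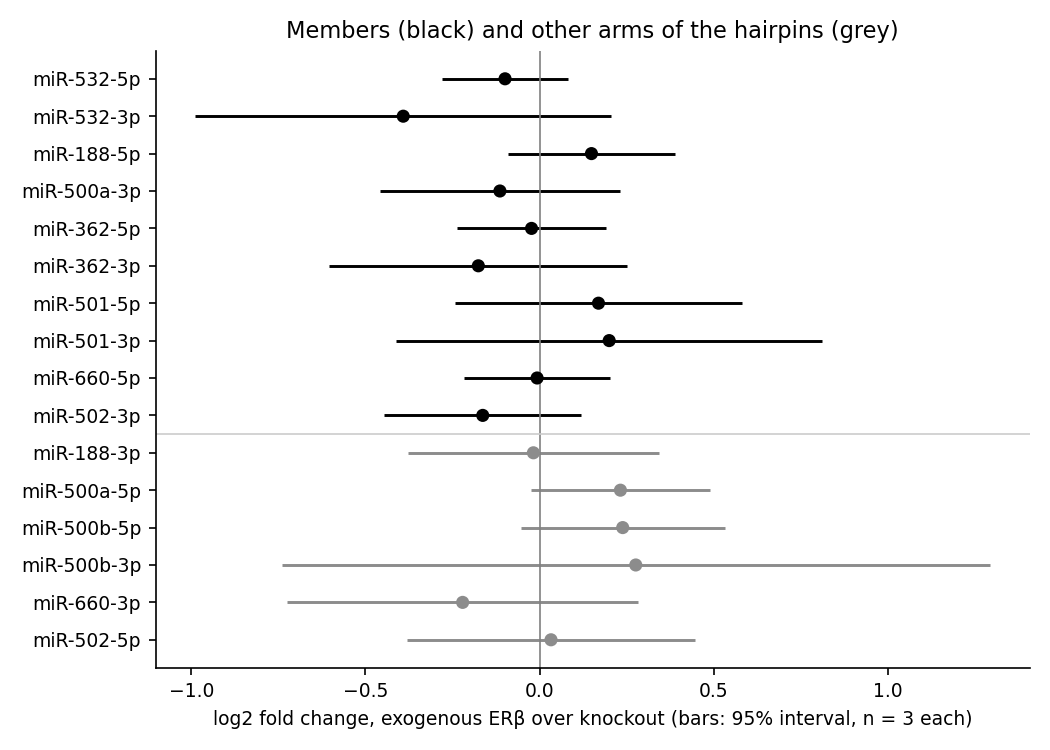
Log2 fold change (ERβ over knockout, points) with its 95% interval (bars, n = 3 libraries per group) for the 10 members in black and the 6 other arms in grey, in order along CLCN5 within each set. Every interval includes 0, and the points of the members lie between -0.39 and 0.20.

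Of the 6 other arms, 0 passed with edgeR, DESeq2 or limma-voom, where these called 23.1%, 21.5% and 24.6% of all tested miRNAs, and 0 had an unadjusted p under 0.05 in edgeR, where 269 of 783 did. miR-500a-5p was the only one of the 6 whose groups did not overlap, as was the case for 39.8% of all tested miRNAs. It had 27.0, 27.6 and 22.6 CPM in ERβ libraries 1, 2 and 3, against 22.2, 22.1 and 21.4 CPM in knockout libraries S1, S2 and 3 (log2 fold change 0.23 ± 0.11; edgeR adjusted p = 0.187). miR-500b-5p, with which it shares reads, was at 0.24 ± 0.13. With library totals, which called 26.4% of all tested miRNAs, miR-500a-5p passed (0.39 ± 0.12, edgeR adjusted p = 0.0390). miR-188-3p (-0.018 ± 0.16), miR-660-3p (-0.22 ± 0.22), miR-500b-3p (0.28 ± 0.45) and miR-502-5p (0.032 ± 0.18), reported to target the histone methyltransferase gene KMT5A, averaged 1.89 to 6.74 CPM and had wider intervals.

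The balance between the strands varied from hairpin to hairpin. The log2 ratio of 5p to 3p counts averaged 9.09 ± 0.31 in ERβ and 8.85 ± 0.097 in knockout libraries for miR-660 (SD, n = 3 each). In miR-532 it was 5.22 ± 0.068 in ERβ and 5.02 ± 0.50 in knockout libraries, and in miR-362 it was 1.58 ± 0.10 in ERβ and 1.45 ± 0.39 in knockout libraries. The 3p strand was the more abundant in miR-500a (-1.41 ± 0.13 in ERβ and -1.73 ± 0.31 in knockout libraries) and in miR-502 (-2.32 ± 0.17 in ERβ and -2.51 ± 0.50 in knockout libraries). In miR-188, miR-501 and miR-500b the 5p strand was the more abundant. The ratio averaged 2.83, 0.78 and 2.97 in ERβ and 2.66, 0.89 and 3.01 in knockout libraries. Some neighbouring hairpins, such as miR-500a and miR-362, thus favoured opposite strands, while others, such as miR-532 and miR-188, favoured the same.

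For the 3 hairpins with both strands among the members, the ratio was compared between groups by an exact two-sided permutation test. With 3 libraries against 3 its smallest possible p is 0.10, so that no ratio could pass a threshold of 0.05. The difference in log2 ratio (ERβ minus knockout) was 0.20 for miR-532 (exact p = 1.00), 0.13 for miR-362 (exact p = 0.70) and -0.12 for miR-501 (exact p = 0.80), each with a p adjusted over the 3 ratios of 1.00. Library S2 had the lowest ratio of the 6 libraries in 7 of the 8 hairpins, miR-532 among them (4.44), and the highest in miR-362 (1.90). The hairpins miR-500a, miR-501, miR-500b and miR-502 are not separate observations, because some of their reads were divided among names. In miR-501, S2 (0.477) was close to ERβ library 3 (0.485). The 3p strands of miR-500b and miR-660 had only 10 to 39 and 29 to 43 counts a library. Ratios within hairpins were not computed outside the cluster. Over tested miRNAs averaging at least 10 CPM, S2 deviated from the other knockout libraries by a median log2 of -0.13 in 172 5p strands. In 167 3p strands, not paired with these by hairpin, it was -0.056. Whether the ratios of other hairpins shifted in S2 was not tested. Without S2 the ERβ minus knockout difference was -0.095 in miR-532, 0.36 in miR-362 and -0.33 in miR-501. In miR-362 the 3 ERβ libraries (1.47 to 1.65) lay above knockout libraries S1 and 3 (1.20 and 1.26).

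**Figure D3:**
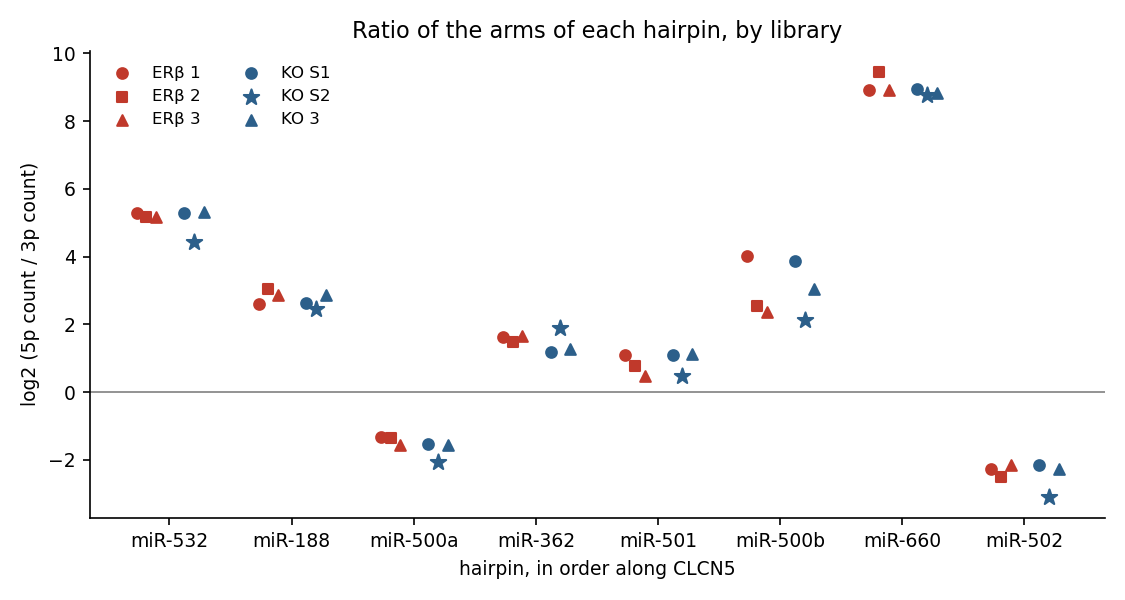
Log2 ratio of 5p to 3p counts (rounded, 0.5 added to each) for the 8 hairpins in their order along CLCN5, by library, with ERβ libraries in red and knockout libraries in blue. The ratios run from under -3 in miR-502 to over 9 in miR-660, and knockout library S2 (star) has the lowest ratio of the 6 in every hairpin but miR-362.

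The spread of the members was larger among the 3 knockout libraries, S2 included. In 9 of 10 the coefficient of variation was larger there, with a median of 5.02% in ERβ and 16.3% in knockout libraries. The corresponding medians over the 390 tested miRNAs averaging at least 10 CPM were 4.398% in ERβ and 11.4% in knockout libraries. Between knockout libraries S1 and 3 alone (n = 2) the median was 2.74% for the members and 3.63% for the 390, and in 3 of 10 members that coefficient was larger than in ERβ libraries. Library S2 was the highest knockout library for 6 members and the lowest for 3, namely miR-660-5p, miR-188-5p and miR-362-3p. Its deviation thus had no common direction across the cluster.

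Without library S2 (3 ERβ against 2 knockout libraries), 2 of the 10 members passed, where 34.9% of all tested miRNAs did. miR-501-3p was higher and miR-362-3p lower with ERβ, with the values given above. Leaving out any other library called 0 of 10, where 13.7 to 19.5% of all tested miRNAs passed.

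**Figure D4:**
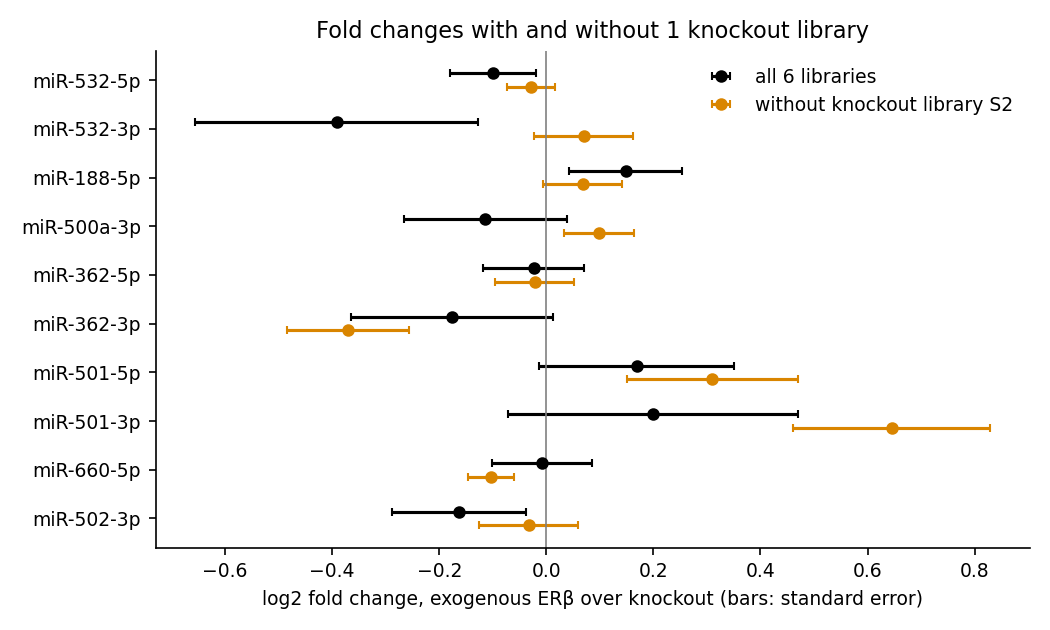
Log2 fold change (ERβ over knockout) with its standard error for each member, from all 6 libraries (black) and without knockout library S2 (orange). miR-532-3p moves from -0.39 to 0.070, miR-362-3p from -0.18 to -0.37 and miR-501-3p from 0.20 to 0.65, while miR-362-5p stays near 0.

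Other miRNAs of chromosome X were read from the same fit, in lists chosen with earlier results of these data known. None of the 16 strands of the CLCN5 cluster passed. Of 7 strands of the Xp11 neighbours miR-221, miR-222, let-7f-2 and miR-98, 2 were lower with ERβ, with a median log2 fold change of -0.24. Of all 783 tested miRNAs 77 were higher and 104 lower. In the cluster of miR-374, miR-545 and miR-421 4 of 7 were higher by edgeR (median 0.40), while DESeq2 called 7 and limma-voom 6. In that of miR-424, miR-503, miR-450 and miR-542 7 of 7 were lower by edgeR (median -0.68), while DESeq2 called 7 and limma-voom 6. Of miR-224 and miR-452 1 of 3 tested was lower (median -0.38). Outside the CLCN5 cluster, RefSeq placed 50 tested miRNAs on chromosome X alone, of which 20 are in these lists, and 6 of the 50 were higher and 21 lower. The 50 are not complete: RefSeq entries were matched for 690 of the 783 tested miRNAs, and some strands of these lists are not among them. Of the 30 in no list 3 were higher and 12 lower. The difference between the CLCN5 cluster and these lists was not tested.

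**Figure D5:**
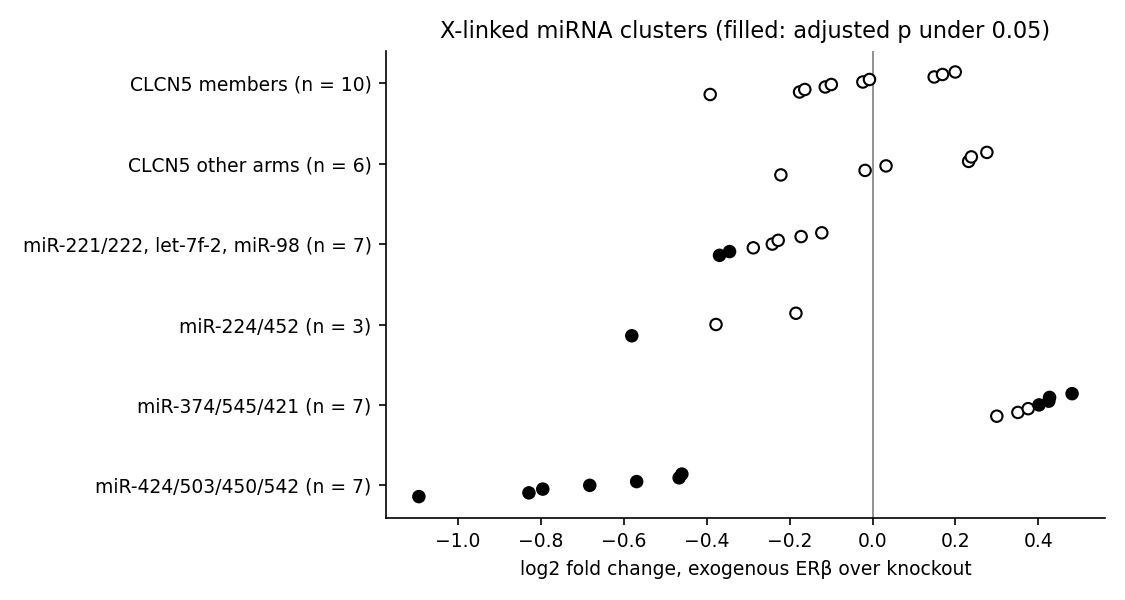
Log2 fold change (ERβ over knockout) of each tested miRNA in 6 lists on chromosome X, with filled points for an adjusted p under 0.05. The 16 points of the CLCN5 cluster are all open and lie on both sides of 0, while the 7 points of the miR-424 and miR-503 cluster are filled and below 0.

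Seeds were compared for the 9 members with a matched sequence, which leaves out miR-660-5p. The tested miRNA outside the cluster with any of these seeds was miR-329-3p, which shares ACACACC with miR-362-3p. It had 3.14 ± 0.476 CPM with ERβ and 1.63 ± 0.435 CPM in knockout cells and was higher (log2 fold change 0.95 ± 0.25; edgeR adjusted p = 0.0245, n = 3 each). The mean profile of miR-660-5p and miR-532-5p over the 6 libraries was set against 189 other miRNAs averaging at least 100 CPM, by the root mean square difference of log2 CPM centred on each miRNA's mean. The closest were miR-186-5p (0.018), let-7i-5p (0.032) and miR-194-5p (0.034), none of which passed (log2 fold changes -0.053 ± 0.062, -0.053 ± 0.063 and -0.029 ± 0.075). Profiles this close carry nearly the same group difference, so that they did not pass follows from the choice and is no separate result. The 2 members were themselves 0.183 apart and deviated from their group in opposite directions in S2, so that their mean profile is that of neither. Compared singly, a choice made after seeing the data, miR-660-5p was closest to miR-16-2-3p (0.038), miR-181a-3p (0.039) and miR-200a-3p (0.040). miR-532-5p was closest to miR-769-5p (0.023), miR-140-3p (0.039) and miR-324-5p (0.040). That none of these 6 passed likewise follows from how they were chosen.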

How the data were processed

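Libraries were made with a QIAseq miRNA kit, per the labels' protocols. Per the submitters' processing notes FastQC and Trim Galore were used with GRCh38. The sources used here do not give the aligner, the counter or any use of molecular identifiers. Values deposited by the authors are unscaled expected counts, 1 per mature name and library, with 6.33 to 7.27% of values per library not whole. Of the knockout columns 2 carry the number 1, and these are known by group only.

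Expected counts were rounded and tested in R 4.3.3 with edgeR 4.0.16 (filterByExpr defaults, TMM, robust quasi-likelihood fit of all 6 libraries without covariates, Benjamini-Hochberg over 783 miRNAs at 0.05). Standard errors are fold changes (log2) divided by the root of the F statistic, and intervals use the fit's t distribution. Alternatives were 4 scalings, 2 filters, DESeq2 1.42.0, limma-voom (limma 3.58.1), a replicate block, the 4 summed 3p names and each library left out. Arm ratios were compared with exact permutation tests (scipy 1.17.1). A value of 3 counts corresponds to 0.210 to 0.292 CPM, which covers counting error only. All members and other arms are named, and outside miRNAs by shared seed (at most 3 per seed) or by the 3 smallest profile distances to the mean of the most abundant pair (afterwards also to each of the pair). Members and lists were chosen with earlier results of these data known.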

Additional observations from a re-analysis of the deposited data

How the results depend on the processing

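Over 16 alternatives, 3 of 156 combinations of member and alternative passed the test. Of these alternatives 14 called no member, where they called 10.9 to 32.1% of all tested miRNAs. With library totals, which called 26.4% of all tested miRNAs, 1 member was higher (miR-188-5p, 0.31), and among the other arms also miR-500a-5p (0.39). With a library left out the number higher ranged from 0 to 1 and the number lower from 0 to 1, the calls coming without knockout library S2. Some values that did not pass changed sign. With upper-quartile factors, which moved the median of all miRNAs by 0.11 on the log2 scale, the log2 fold change was 0.012 for miR-532-5p, 0.089 for miR-362-5p, 0.11 for miR-660-5p, 0.093 for miR-188-3p and 0.0046 for the summed 3p names. With library totals it was 0.054 for miR-532-5p, 0.034 for miR-500a-3p, 0.13 for miR-362-5p, 0.15 for miR-660-5p, 0.14 for miR-188-3p and 0.046 for the summed 3p names. Without a filter it was 0.024 for miR-362-5p, 0.039 for miR-660-5p and 0.030 for miR-188-3p, and with at least 10 CPM in 3 libraries, which left out miR-501-3p, 0.018 for miR-362-5p and 0.035 for miR-660-5p. miR-660-5p was at 0.00097 with DESeq2 size factors, 0.00098 with the DESeq2 test and 0.0015 with limma-voom.

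With a library left out, the log2 fold changes ranged from -0.10 to 0.057 for miR-660-5p, -0.030 to 0.028 for miR-362-5p, -0.58 to 0.070 for miR-532-3p, -0.22 to 0.098 for miR-500a-3p, -0.15 to -0.028 for miR-532-5p, 0.068 to 0.21 for miR-188-5p, -0.37 to -0.038 for miR-362-3p, 0.062 to 0.31 for miR-501-5p, -0.23 to -0.033 for miR-502-3p, -0.0047 to 0.65 for miR-501-3p, -0.11 to 0.10 for miR-188-3p, -0.030 to 0.88 for miR-500b-3p, -0.13 to 0.16 for miR-502-5p and -0.17 to 0.10 for the summed 3p names. The differences in log2 arm ratio ranged from -0.33 to 0.027 for miR-501, 0.0026 to 0.36 for miR-362 and -0.095 to 0.35 for miR-532. The replicate block, from the numbers in the column names, which no label says mark a shared culture, called 0 members and 88 of all miRNAs against 181 without it. Knockout libraries S1 and S2 share the number 1 with ERβ library 1. ERβ library 2 is alone in its block and adds nothing to the comparison of groups. With the block miR-188-3p was at 0.11 and miR-500b-3p at -0.034. The causes of these shifts were not tested. Depth limits miR-501-3p, with 36.3 to 101.5 counts per library.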
